A study of Mus musculus with 232 samples.

Results

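Lin28a and Lin28b were followed in the single-cell transcriptomes of mouse embryonic stem cells (mESCs), as 2 genes of the 42493 in the files. They were chosen by name, with their levels across the conditions already known, so the levels below are a description and no test was applied to them. The cells were wild-type (WT) V6.5 mESCs and Dgcr8-/- mESCs that were mock-transfected or transfected with a mimic of miR-294 or of let-7. Dgcr8-/- cells lack a subunit of the nuclear miRNA processing complex and so make almost no canonical miRNAs of their own, and all 3 Dgcr8-/- groups share that deletion. All cells were grown in serum with LIF and 2i (PD0325901 and CHIR99021), and the cells were captured 24 h after transfection on a Fluidigm C1 circuit, with 1 circuit for each condition. Whether the WT cells also received transfection reagent was not given in the sources used here. The let-7 mimic is called let-7i, let-7b or let-7c by the different sources and is written let-7 here. Before deposit, the authors had removed transfected cells whose let-7 or miR-294 targets were not reduced, so the transfected groups were selected on a readout.

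Lin28a and Lin28b are RNA-binding proteins that combine a cold-shock domain with zinc knuckles and bind the loop of let-7 precursors. Bound Lin28a recruits the terminal uridylyl transferases Zcchc11 and Zcchc6, and the uridylated precursor is degraded by the exonuclease Dis3l2, so that mature let-7 stays low in pluripotent cells. Mature let-7 in turn can silence the Lin28 mRNAs, and so the pair and the miRNA oppose each other. miR-294 belongs to the ESCC family, the main miRNA family of mESCs.

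In the C1 libraries the 182 cells named by the labels came in 232 sequencing runs. The runs of each cell were added up, and the expected counts were divided by a DESeq size factor to give normalized counts. A comparison of all runs showed that 4 pairs of differently named cells, 3 among the let-7 cells and 1 among the miR-294 cells, held the same profile (Pearson r of log2 values from 0.980 to 0.991, against 0.704 at most for other pairs of cells). Each of these pairs was counted as 1 cell, which left 178 cells, namely 16 WT, 60 mock, 57 miR-294 and 45 let-7. In 2 further cells, 1 WT and 1 let-7, the runs differed (r = 0.498 and 0.478), and in that WT cell one run held no Lin28a count while the other held 431. Lin28a was counted in 14 of 15 WT cells without that cell (93.3%), and in 15 of 17 when its runs were taken as separate cells (88.2%). The log2 ratio of Lin28a between WT and mock cells was 7.20 with both cells, 7.23 without them and 7.18 with their runs taken apart. Cells held from 513521 to 3979274 counts (median 1519780) and from 6119 to 10877 detected genes. The labels name no separate cultures, so each condition was 1 sample whose cells are not replicates, and the spread given is that between cells.

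Dgcr8 was counted in all 16 WT cells (120 ± 166 normalized counts, mean ± SD over cells), in 54 of 60 mock cells (52.3 ± 119), in 55 of 57 miR-294 cells (68.7 ± 89.8) and in 43 of 45 let-7 cells (41.8 ± 65.4). Which part of Dgcr8 was deleted was not given in the sources used here. The gene-level count does not separate exons and therefore does not check the genotype. The cell type was checked by its markers. Of 11 naive stem cell markers, including Pou5f1, Nanog and Zfp42, all 11 passed a mean of 5 counts, and together they took 0.0345% to 0.697% of the counts of a cell. Their median share was 0.411% in WT, 0.402% in mock, 0.453% in miR-294 and 0.161% in let-7 cells. In let-7 over mock cells 3 of 11 were at least 2-fold lower, Sall4 at -2.40, Prdm14 at -1.53 and Nanog at -1.50. None was higher, beside 9.2% of all genes lower and 18.6% higher. The part of these markers in the let-7 results below was not tested. In WT over mock cells Pou5f1 and Prdm14 were at least 2-fold lower and Dppa3 higher, beside 32% and 9.38% of all genes. In miR-294 over mock cells Prdm14 was lower and Dppa3 higher, beside 20.6% and 5.8%. Dppa3 was counted in 2 of 16 WT, 4 of 60 mock and 12 of 57 miR-294 cells, so its ratios rest on few cells. Of 7 feeder fibroblast markers none passed that filter, Col1a2, Col3a1, Postn and Lum were at 0 in all cells, and the list took at most 0.0219% of the counts of any cell.

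The miRNA sequences are shown because they set the sites searched in the Lin28 mRNAs. The mature sequences below are those of RefSeq (GRCm38.p6), with the seed, bases 2 to 8, in capitals.
let-7c-5p: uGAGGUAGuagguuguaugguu
let-7b-5p: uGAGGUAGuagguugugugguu
let-7i-5p: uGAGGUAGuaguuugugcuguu
miR-294-3p: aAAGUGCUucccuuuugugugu
The let-7 mimics named by the different sources share 1 seed, which 11 mature mouse miRNAs of the table hold, and differ only outside it. Counted from the 5′ end of let-7c, let-7b differs by A17G, and let-7i differs by G12U, A17G, U18C and G19U. The miR-294 seed is held by 5 mature miRNAs and shares no 7-base match with that of let-7.

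Lin28a (ENSMUSG00000050966) lies on the minus strand of chromosome 4 at 134003330 to 134018841 in GRCm38 (Gencode M21), and Lin28b (ENSMUSG00000063804) lies on the minus strand of chromosome 10 at 45376620 to 45486395. The longest 3′ UTR of Lin28a has 2775 bases, and that of Lin28b has 4445. The let-7 seed match searched was CTACCTC, on the mRNA strand only, and overlapping matches were counted. It occurred 2 times in the Lin28a UTR and 4 times in the Lin28b UTR. Of 3239 mouse 3′ UTRs at least as long as that of Lin28a, 16.1% held the match in their first 2775 bases and 1.73% held it at least 2 times. Of 1094 UTRs at least as long as that of Lin28b, 24.8% held it in their first 4445 bases and 0.274% held it at least 4 times. The matches to the whole seed are given with their surroundings, since let-7 could act on either mRNA through them, with the match in capitals.
Lin28a, UTR position 909, chr4:134005178-134005207: agcctgttgaaCTACCTCatttttgccgat
Lin28a, UTR position 1547, chr4:134004540-134004569: tcgccacaaacCTACCTCactgtgttgaaa
Lin28b, UTR position 36, chr10:45381011-45381040: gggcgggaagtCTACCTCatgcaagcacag
Lin28b, UTR position 2410, chr10:45378637-45378666: cttgttagtaaCTACCTCtgagtttgacat
Lin28b, UTR position 2582, chr10:45378465-45378494: acagcacatggCTACCTCccagctaccaca
Lin28b, UTR position 3998, chr10:45377049-45377078: gatggcaccgaCTACCTCttcaatcacttg
Both Lin28a matches are followed by an A, which lies opposite base 1 of the miRNA and marks the longest class of seed site. Of the Lin28b matches, the one at position 36 is followed by an A. The miR-294 seed match AGCACTT was not in the Lin28a UTR and occurred once in the Lin28b UTR, at position 2535, where 45% of UTRs of that length held it.
Lin28b, UTR position 2535, chr10:45378512-45378541: tcactgatatgAGCACTTgctcattcacac
Shorter matches, which lack the first base of the match searched and are followed by an A, also lay in the Lin28b UTR. They were TACCTC for let-7 at position 4188 and GCACTT for miR-294 at position 4033. A match is a description of the sequence, and whether any of these sites was used in the cells was not measured. The transcripts of Lin28a share no stretch of 31 bases with another gene, and 0.321% of the stretches of that length in Lin28b occur in other genes. None is shared between the pair.

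Lin28a was abundant in WT cells and was counted in 15 of 16 of them. Its normalized count ran from 0 to 508 with a median of 265 and a mean of 264 ± 176 (SD over 16 cells). The other low WT cells held 11.6, 53.1 and 77.7, and 11 WT cells lay above 200. The cell without a count was the shallowest of all, with 513521 counts in total. Pooled over cells, Lin28a stood at 215 CPM, which is its count scaled to a common library total (5249 counts, exact 95% Poisson interval 209 to 220). This interval and those below cover counting error only, since reads without molecular identifiers are not independent molecules.

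Mock-transfected Dgcr8-/- cells were nearly free of Lin28a counts. Of 60 cells, 57 held none, and the other cells held 1, 14 and 99 counts. The mean of 1.79 ± 12.2 normalized counts therefore came almost wholly from 1 cell, which gave 87.7% of the sum, and without it the mean was 0.225. Pooled, Lin28a made up 1.09 CPM (0.899 to 1.31). The WT and mock cells overlapped, because 1 WT cell had no count and the highest mock cell, at 94.2, passed 4 of the 16 WT cells. The mock cell with 14 counts reached 12.3 and lay above 2 WT cells, and no further mock cell lay above more than 1.

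miR-294-transfected cells were divided. Lin28a was counted in 26 of 57 cells, and the median over all cells was 0. The mean was 37.3 ± 62.6 and the highest cell reached 266. Among the cells with a count the normalized count ran from 0.514 to 266 with a median of 57.1, which was 5.36 times lower than the median of 306 in the WT cells with a count. By size, 3 cells lay at or below 10, 5 above 10 and up to 50, 8 above 50 and up to 100, 8 above 100 and up to 200, and 2 above 200. Thus 1 miR-294 cell passed the WT median and 8 passed the WT lower quartile of 113. Pooled, Lin28a made up 27.8 CPM (26.8 to 28.9).

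let-7-transfected cells held Lin28a in 1 of 45 cells. That cell had 40 counts, or 76.9 normalized counts, and was the shallowest of the let-7 cells with 808409 counts in total. The pooled level was 0.513 CPM (0.366 to 0.698). The order of mean levels was WT, miR-294, mock and let-7, and the last 2, at 1.79 and 1.71, did not differ beyond their spread. Each of these values rests on 3 cells or fewer.

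**Figure D1:**
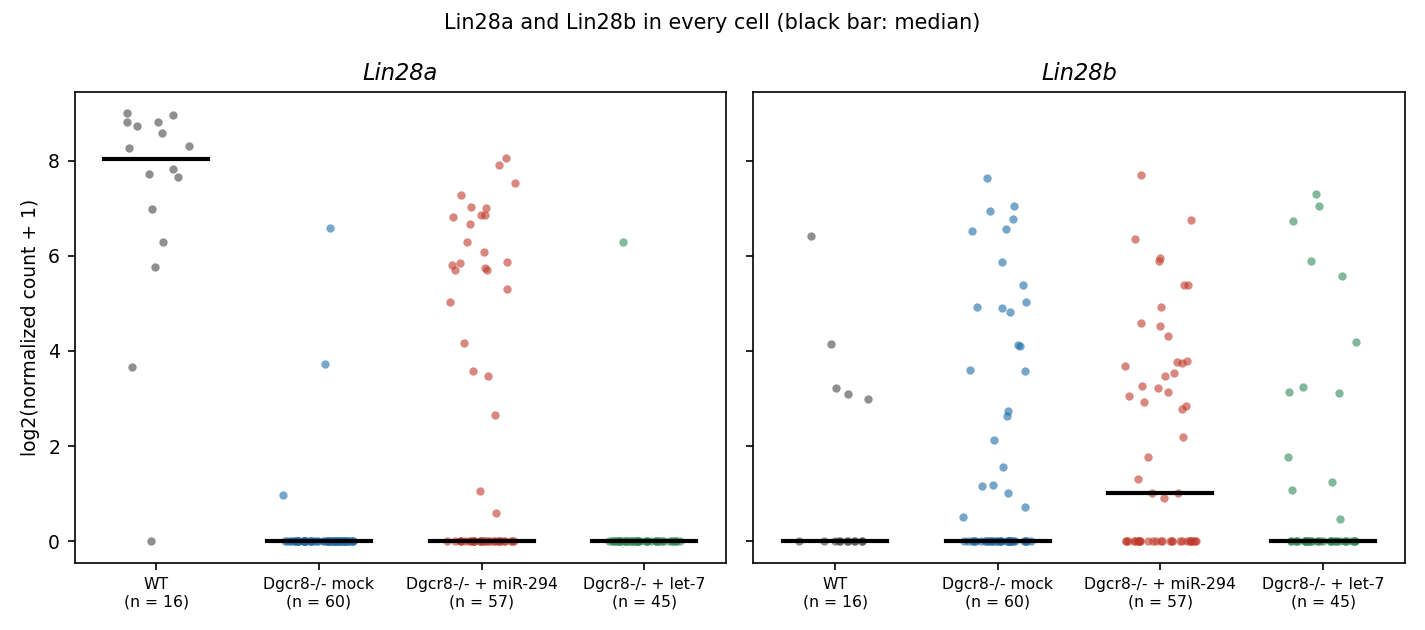
Each point is 1 cell, with log2(normalized count + 1) of Lin28a (left) or Lin28b (right) on the y axis, the 4 conditions on the x axis and the median as a black bar. For Lin28a most WT cells sit above all mock and let-7 cells and the miR-294 cells split between 0 and a cloud that reaches 266 normalized counts, whereas Lin28b is at 0 in many cells of every condition and reaches 84.5 in WT, 197 in mock, 206 in miR-294 and 156 in let-7 cells.

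The share of cells with at least 1 count of Lin28a was 93.8% in WT (exact Clopper-Pearson interval 69.8 to 99.8), 5% in mock (1.04 to 13.9), 45.6% in miR-294 (32.4 to 59.3) and 2.22% in let-7 cells (0.0562 to 11.8). The intervals cover counting within 1 circuit and do not compare the conditions. Depth was compared with these shares. After each cell was thinned to 513521 counts the shares were 93.7%, 3.89%, 43% and 2.22%. At the WT median level, the shallowest cell without a count would have held 178 counts in the miR-294 group, 86.2 in the mock group and 113 in the let-7 group. A count of 0 in these cells therefore lies far below the count that their depth gives at the WT median. These expected counts take in depth only, and loss of a transcript before sequencing was not measured. Of 48 cells with 2 runs of the same profile, Lin28a was 0 in both runs in 35 and counted in both in 10. In the other 3 cells it was counted in one run only, with at most 2 counts. The study describes its second runs as resequencing of the same samples, so this agreement covers sequencing only.

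Among all genes with a mean of at least 5 counts, no other had a larger excess in the share of cells in WT over mock than Lin28a, at 88.8 percentage points (rank 1 of 11227). In miR-294 over mock cells the excess of Lin28a was 40.6 points, at rank 4. Of 11227 genes, 46 had shares in mock and let-7 cells no higher than the 5% of Lin28a in mock cells. Among these 46, only Lin28a itself reached its own share in WT cells. Both cutoffs were set at the values of Lin28a, so it met them by construction. These ranks and counts describe the pattern for which the gene was known, and carry no test.

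On the scale of condition means, Lin28a was higher in WT than in mock cells by 7.20 on the log2 scale, and 9 of 11179 genes were higher by more. In this comparison 9.38% of genes were at least 2-fold higher in WT and 32% at least 2-fold lower, with a median log2 ratio of -0.37 over all genes, so Lin28a lay 7.58 above the median gene. Between miR-294 and mock cells the log2 ratio of Lin28a was 4.38, at rank 65 of 11213. Here 5.8% of genes were at least 2-fold higher and 20.6% at least 2-fold lower, the median was -0.28, and Lin28a lay 4.66 above it. Between miR-294 and WT cells it was -2.83, a direction shared by 13.5% of genes at 2-fold. Between let-7 and mock cells it was -0.07, with 9.2% of genes at least 2-fold lower and 18.6% at least 2-fold higher.

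These ratios depend on few mock and let-7 cells. Without the highest cell of each condition the WT over mock ratio was 10.11 and the miR-294 over mock ratio 7.21, since the mock mean then was lower. As a difference of mean log2 values, which weights the many cells at 0, the ratio was 2.35 in miR-294 over mock and -4.67 in miR-294 over WT cells. The let-7 over mock ratio moved to -1.85, with the let-7 mean set at a floor of 3 counts over the group. It was -1.09 from pooled CPM and 0.14 from the first run of each cell alone, so no direction can be given for Lin28a between let-7 and mock cells.

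**Figure D2:**
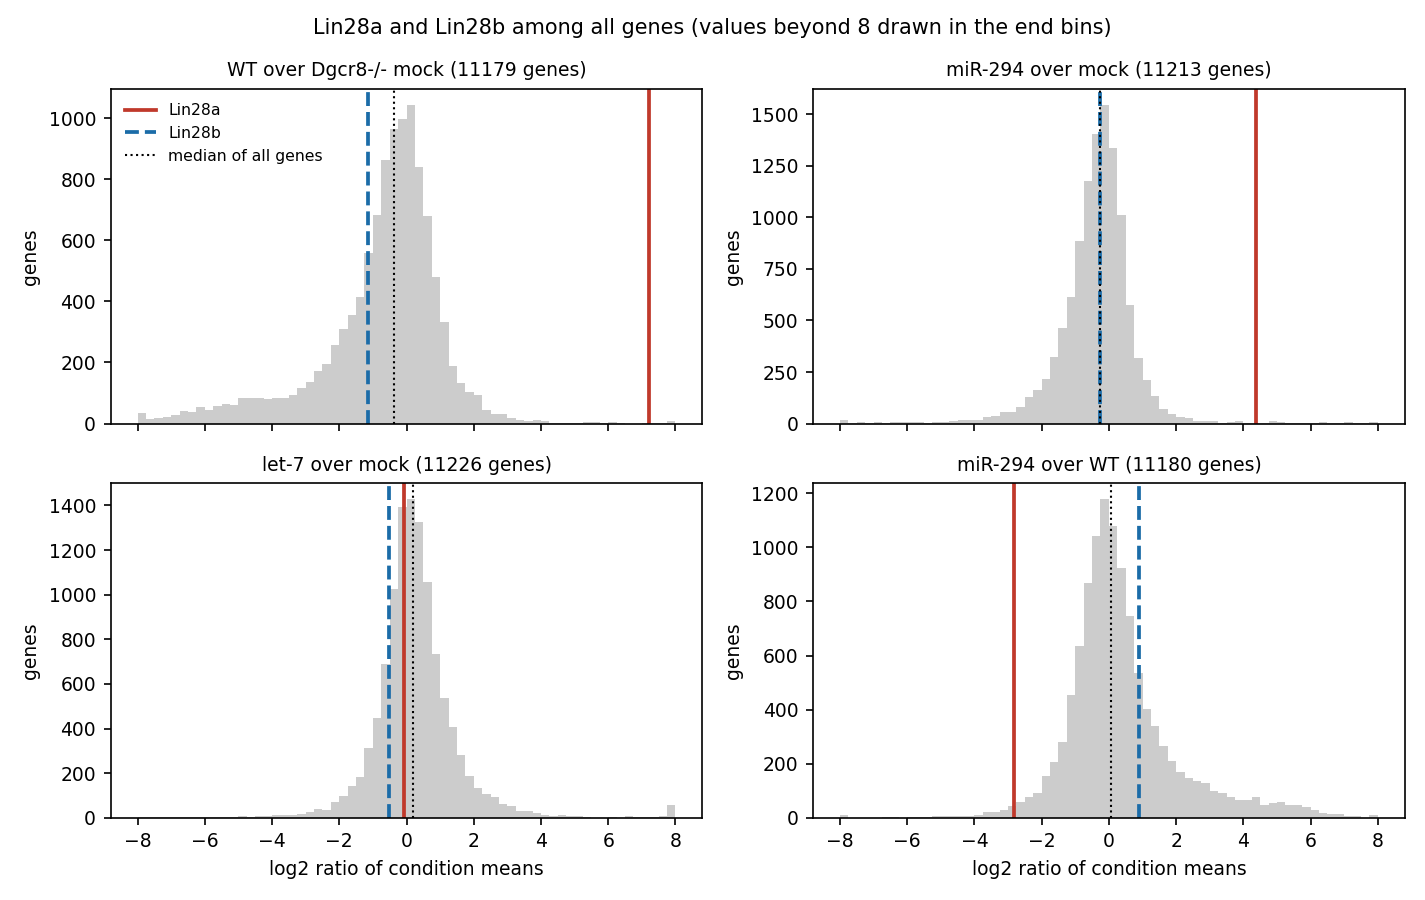
Grey bars count genes by their log2 ratio of condition means (x axis) in the 4 comparisons, with solid lines at Lin28a, dashed lines at Lin28b and dotted lines at the median gene. Lin28a lies at the far right in WT over mock (7.20) and miR-294 over mock (4.38) and on the left in miR-294 over WT (-2.83), whereas Lin28b stays within the bulk of genes.

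Lin28b was found at a low level in part of the cells of every condition. In WT cells it was counted in 5 of 16, with 7.76 ± 21 normalized counts on average, a median of 0 and a highest value of 84.5. That cell alone gave 68% of the WT sum, and the other 4 cells lay between 6.97 and 16.8. In mock cells it was counted in 25 of 60, with a mean of 17.2 ± 39.2 and a range from 0 to 197. Of the mock cells 4 lay above 100.

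In miR-294 cells Lin28b was counted in 30 of 57, the only condition in which its median, 1.03, was above 0. The mean was 14.4 ± 33.4 and the highest cell reached 206. In let-7 cells it was counted in 13 of 45, with a mean of 12.1 ± 34.4 and a highest cell of 156. The order of the means was thus mock, miR-294, let-7 and WT, and the gaps between neighbours were smaller than the SD between cells, which exceeded the mean in every condition. Pooled levels in CPM were 5.68 in WT (4.78 to 6.71), 11.4 in mock (10.8 to 12.1), 10.9 in miR-294 (10.3 to 11.6) and 5.31 in let-7 cells (4.81 to 5.85).

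The share of cells with a Lin28b count was 31.2% in WT (11 to 58.7), 41.7% in mock (29.1 to 55.1), 52.6% in miR-294 (39 to 66) and 28.9% in let-7 cells (16.4 to 44.3). After thinning to 513521 counts the shares were 30.9%, 34.3%, 47.3% and 23.1%. At 10 counts or more they were 18.8%, 26.7%, 31.6% and 15.6%, with the same order of the conditions. The order of WT and let-7 cells turned with the first run only (25% and 28.9%) and without the 2 cells whose runs differed (26.7% and 27.3%). Of 48 cells with 2 runs, Lin28b was 0 in both in 22, counted in both in 22 and counted in one only in 4, with at most 2 counts. A count of Lin28b thus repeated between runs of the same cell, as did its absence, which again covers sequencing only.

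The log2 ratio of Lin28b was -1.15 between WT and mock cells, past 2-fold, and it was -0.95 with CPM and -0.97 with TMM factors, short of 2-fold. Without the highest cell of each condition it was -2.42, and as a difference of mean log2 values -0.45, so its size rests on few cells. Relative to the median gene of that comparison it was -0.78. Between miR-294 and mock cells it was -0.26, which is 0.02 above the median gene, and it was 0.30 when means of log2 values were compared. Between let-7 and mock cells it was -0.51, or -0.69 relative to the median gene. The bulk let-7 targets listed by the study had a median of -0.94 on the scale of the -0.51, beside 0.18 for all genes. That list was also used to choose the let-7 cells. From pooled CPM the ratio of Lin28b between let-7 and mock cells was -1.11, past 2-fold. Between miR-294 and WT cells it was 0.89, a comparison in which 23.8% of genes were at least 2-fold higher, and without the highest cell of each condition it was 2.05. In both comparisons with WT cells the ratio of Lin28b was nearer to 0 than that of Lin28a.

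**Figure D3:**
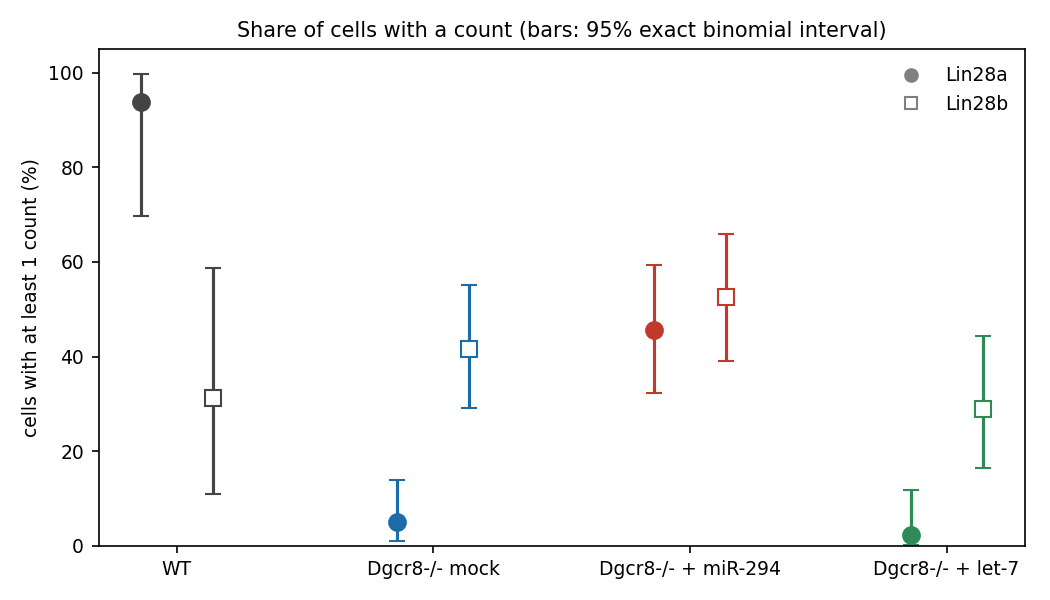
Points give the percentage of cells with at least 1 count of Lin28a (filled circles) or Lin28b (open squares) in each condition, and bars the 95% Clopper-Pearson interval, which covers counting error only. Lin28a runs from 2.22% in let-7 to 93.8% in WT cells, whereas Lin28b runs from 28.9% in let-7 to 52.6% in miR-294 cells.

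Levels of the pair were compared per length, with the deposited FPKM. In WT cells Lin28a had a mean of 57.1 ± 37.4 FPKM and Lin28b 1.05 ± 2.76, a ratio of 54.3, and Lin28a was the higher in 15 of 16 cells. In miR-294 cells the means were 8.41 ± 14.2 and 2.02 ± 4.60. There Lin28a was the higher in 23 cells, Lin28b in 16, and 18 cells were at 0 for both. In mock cells the order was turned, with 0.362 ± 2.49 for Lin28a and 2.03 ± 4.55 for Lin28b, and Lin28b was the higher in 25 cells and Lin28a in 3. In let-7 cells the means were 0.328 ± 2.20 and 1.33 ± 3.72, and Lin28b was the higher in all 13 cells that held either gene. The 2 genes were therefore not expressed in a fixed proportion over the conditions.

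Whether the pair occurred in the same cells was then described. In WT cells 5 held both, 10 Lin28a only, none Lin28b only and 1 neither. In mock cells none held both, 3 Lin28a only, 25 Lin28b only and 32 neither. In miR-294 cells 17 held both, 9 Lin28a only, 13 Lin28b only and 18 neither. Lin28b was thus counted in 65.4% of the miR-294 cells with Lin28a and in 41.9% of those without. In let-7 cells 1 held both, none Lin28a only, 12 Lin28b only and 32 neither.

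Spearman's rho between Lin28a and Lin28b was 0.06 over 16 WT cells, -0.18 over 60 mock cells, 0.24 over 57 miR-294 cells and 0.30 over 45 let-7 cells. The cells of a condition share a circuit and differ in depth. The let-7 value rests on the 1 cell with Lin28a, which was second of the let-7 cells in Lin28b. In miR-294 cells the middle 90% of 11188 genes had a rho with Lin28a between -0.19 and 0.28, and 91.2% of them lay below Lin28b. Over the 17 miR-294 cells with both genes rho was -0.04. The number of detected genes had a rho of 0.31 with Lin28a and 0.26 with Lin28b in these cells, and its part in the relation was not tested.

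**Figure D4:**
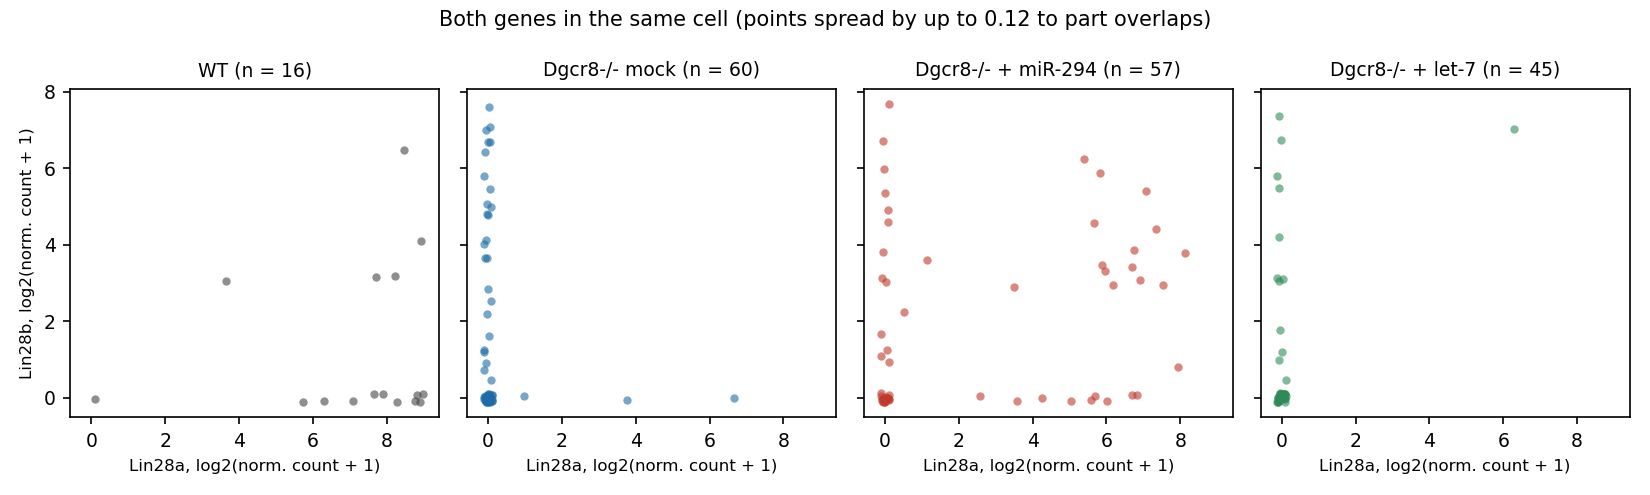
Each point is 1 cell, with log2(normalized count + 1) of Lin28a on the x axis and of Lin28b on the y axis, in 1 panel for each condition and with small random offsets. Mock and let-7 cells line up at 0 of Lin28a, WT cells lie to the right and low, and miR-294 cells fill all 4 classes (17 with both genes, 9 with Lin28a only, 13 with Lin28b only and 18 with neither).

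The miR-294 cells with and without a Lin28a count had like depths, with median totals of 1390210 counts in the 26 cells and 1606840 in the 31 cells. Medians of 8090 and 7624 detected genes went with these. Of 11 naive markers, Zfp42 (Rex1), a zinc finger protein of naive cells, had the lowest rho with Lin28a in miR-294 cells, -0.50. Dppa3 (Stella), a maternal and germline factor, had the highest, 0.35, but was counted in only 12 of the 57 cells. Zfp42 had a rho of 0.16 with Lin28a in WT and of 0.23 in mock cells. For all 11 markers the median rho with Lin28a was -0.08 in miR-294 cells, with 4 of 11 above 0, beside a median of 0.05 over all genes. The mean log2 level of the 11 markers had a rho of 0.04 with Lin28a and of -0.03 with Lin28b there.

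The partners of Lin28 in let-7 decay were counted in all conditions. Of 4 listed genes none was at least 2-fold higher or lower in miR-294 or let-7 over mock cells, and 1 was lower in WT cells. Of all genes, 5.8% were higher and 20.6% lower in miR-294, 18.6% and 9.2% in let-7, and 9.38% and 32% in WT over mock cells. With 4 genes these counts do not set the partners apart from all genes. Zcchc11 (Tut4), the uridylyl transferase recruited by Lin28a, had means of 108 in WT, 76.2 in mock, 60.2 in miR-294 and 63.7 in let-7 cells. Zcchc6 (Tut7), its close relative, had 19.1 in WT and 41.3 in mock cells, a log2 ratio of -1.11, which was short of 2-fold with CPM. Dis3l2, the exonuclease that degrades uridylated let-7 precursors, was at 20.1, 24.5, 17.2 and 31.6. Trim25, an RNA-binding ubiquitin ligase, was at 103, 86.1, 70.1 and 113. The median log2 ratio of the 4 genes was -0.01 in WT, -0.43 in miR-294 and 0.38 in let-7 over mock cells, beside -0.37, -0.28 and 0.18 for all genes, and the WT value was 0.10 with CPM. The rho of the partners with Lin28a lay between -0.15 and 0.02 over miR-294 cells and between 0.02 and 0.43 over the 16 WT cells. The mean log2 level of the 4 genes had a rho with Lin28a of -0.10 over miR-294 and of 0.36 over WT cells, and with Lin28b of 0.09 and -0.66.

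Of 7 miRNA processing and silencing genes, 1 was at least 2-fold higher in WT cells, namely Dgcr8 at a log2 ratio of 1.2, and 1 was lower, Ago1 at -1.02, which was short of 2-fold with CPM, beside 9.38% and 32% of all genes. In miR-294 cells none was 2-fold higher (1 with CPM, beside 5.8% of all genes), and Ago1, an Argonaute that carries miRNAs to their targets, was lower at -1.66, beside 20.6% of all genes. In let-7 cells 3 of 7 were at least 2-fold lower, beside 9.2% of all genes, namely Tarbp2, the partner of Dicer, at -3.90, Dicer1, the enzyme that cuts precursors to mature miRNAs, at -1.65, and Ago2, the slicing Argonaute, at -1.32. The list had a median of -0.97 in let-7 over mock cells, against 0.18 for all genes. In miR-294 cells the rho of Lin28a with these genes lay between -0.06 and 0.31 and was highest for Dgcr8.

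Genes that let-7 is known to silence were described beside Lin28b. Of 16 classic let-7 targets, 7 were at least 2-fold lower in let-7 than in mock cells and 2 higher (8 and 1 with CPM), beside 9.2% and 18.6% of all genes, with a median log2 ratio of -0.74. Mycn, a transcription factor of proliferating cells, had a mean of 96.7 normalized counts in mock and 14.6 in let-7 cells (-2.73). Igf2bp2, an mRNA-binding protein, had 115 and 21.5 (-2.42). The chromatin protein Hmga2 had 148 and 32.8 (-2.17), and Trim71, the mouse form of worm lin-41, had 724 and 162 (-2.16). The 2 that were higher, Ccnd2 at 1.37 and Cdk6 at 1.05, drive G1 progression. Lin28b, at -0.51, had a less negative ratio than 9 of the 16. Of the 171 bulk let-7 targets named by the study, among which neither Lin28 gene appears, 169 passed the count filter, of which 82 were at least 2-fold lower and 2 higher. The study also used this same list to choose which let-7 cells to keep, so the direction of its genes is not independent evidence.

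In WT and miR-294 cells, where Lin28a was high or partly high, the classic targets lay on both sides of 0. In WT over mock cells 6 of 16 were at least 2-fold lower and 1 higher, with a median of -0.23 (4 lower and 1 higher with CPM), near the 32% and 9.38% of all genes. In miR-294 over mock cells 2 were lower and 1 higher, with a median of 0.19 (1 lower and 2 higher with CPM), beside 20.6% and 5.8% of all genes. Myc was the higher one in both, at 1.92 and 1.19. Ccnd1 and Ccnd2, cyclins of the G1 phase, were lower in both, with Ccnd2 at -5.07 and -2.50. Over miR-294 cells the rho of Lin28a with the 16 genes ran from -0.09 to 0.31 with 10 above 0, and that of Lin28b from -0.13 to 0.29 with 14 above 0. Over mock cells 7 of 16 were above 0 for either gene. Over all genes the median rho in miR-294 cells was 0.05 with Lin28a and 0.04 with Lin28b, so most genes lay above 0 there. In mock cells the medians were -0.01 and 0.03.

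**Figure D5:**
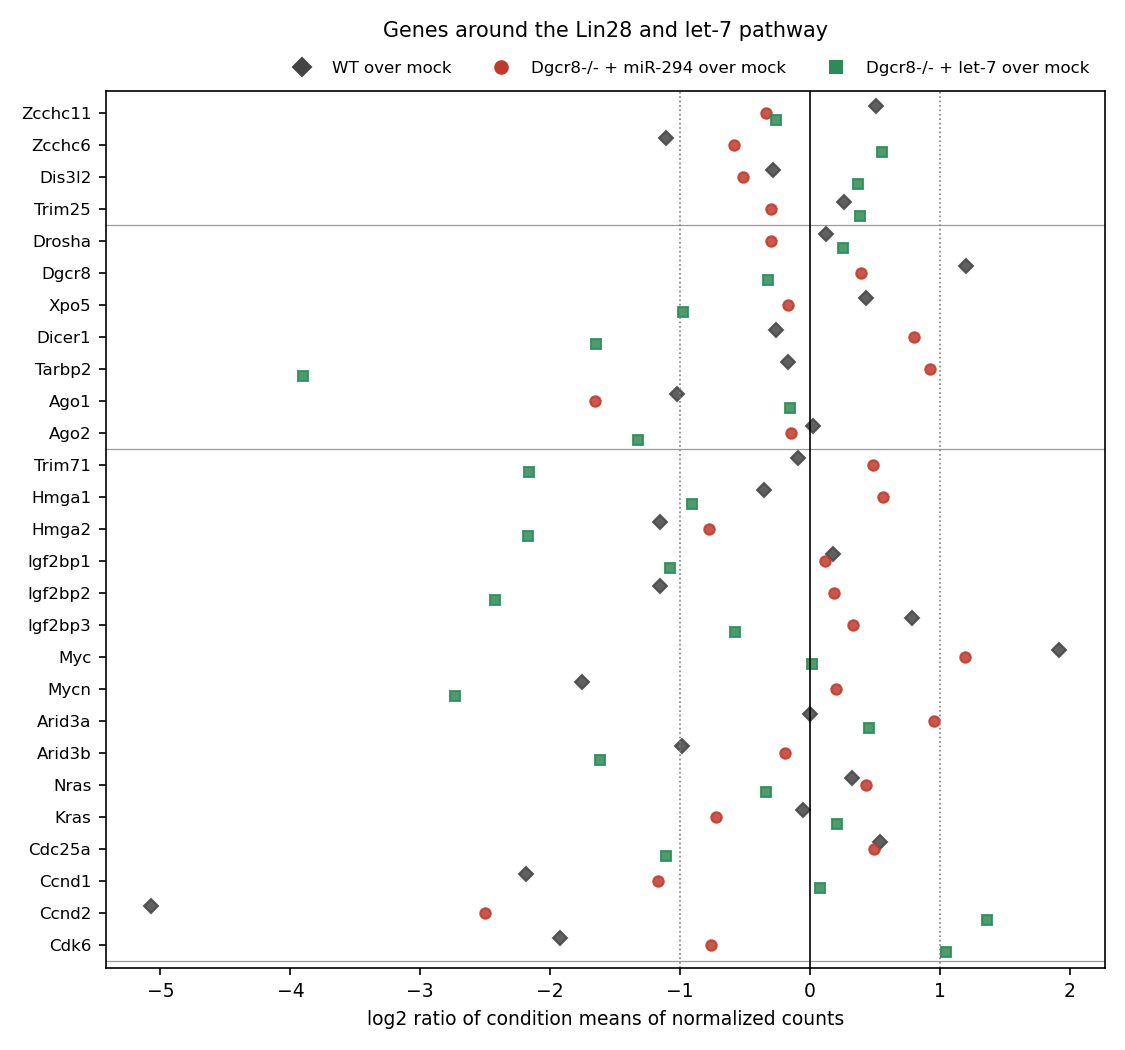
The x axis gives the log2 ratio of condition means over mock cells for 4 partners of Lin28, 7 miRNA processing genes and 16 classic let-7 targets (top to bottom, parted by grey lines), with diamonds for WT, circles for miR-294 and squares for let-7 cells and dotted lines at 2-fold. The let-7 squares reach -3.90 (Tarbp2) and -2.73 (Mycn), whereas the partners of Lin28 stay within 2-fold in miR-294 and let-7 cells. Of all genes, 5.8% lie past 2-fold higher and 20.6% lower in miR-294 cells, and 18.6% and 9.2% in let-7 cells.

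The genes whose pattern over cells was most like Lin28a were named by fixed rules. By the mean rho within mock, let-7 and miR-294 cells, among 6659 genes counted in at least 50% of the cells of each, the closest were Siah1a (0.33), a ubiquitin ligase, Cnbp (0.29), a zinc knuckle nucleic acid-binding protein, Nudt19 (0.27), Cxcr2 (0.27), a chemokine receptor, and Fasn (0.26), the fatty acid synthase. Since 3 mock cells and 1 let-7 cell hold Lin28a, the mock and let-7 parts of this mean rest on those cells. Siah1a had a rho of 0.56 within miR-294 cells and of 0.14 in WT cells. Over all 178 cells, among 9030 genes counted in at least 50% of the cells of a condition, the closest were Nasp (0.54), a histone chaperone, Rangrf (0.49), a Ran-binding protein, Sub1 (0.48), a transcription coactivator, Cnbp (0.48) and Dctpp1 (0.48), a dCTP pyrophosphatase. Nasp had means of 1711 in WT, 823 in miR-294, 595 in mock and 397 in let-7 cells, the same order of conditions as Lin28a. This rule took in all conditions, so a shared order can follow from the choice. Rangrf and Dctpp1 had that order too. Cnbp was higher in miR-294 (1741) than in WT cells (1536), and Sub1 higher in let-7 (242) than in mock cells (220). Within conditions the rho of Nasp with Lin28a was 0.42 in miR-294, 0.25 in mock, 0.18 in WT and -0.10 in let-7 cells, where 1 cell alone holds Lin28a. Cnbp was on both lists and had a rho of 0.49 in WT, 0.44 in miR-294, 0.24 in let-7 and 0.19 in mock cells.

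For Lin28b the closest genes within conditions were Osgep (0.30), a tRNA modifying enzyme, Cmtr1 (0.29), an mRNA cap methyltransferase, Psmg3 (0.29), a proteasome assembly factor, Hdac6 (0.29), a deacetylase, and Thada (0.29). Over all cells the likeness was weaker than for Lin28a, and the closest genes included Cmtr1 (0.31), Parp2 (0.30), a DNA repair enzyme, Med24 (0.30), a Mediator subunit, and Wdr89 (0.28). Cmtr1 was on both lists and had a rho of 0.54 in WT, 0.40 in mock, 0.31 in miR-294 and 0.17 in let-7 cells. No gene was among the closest of both Lin28a and Lin28b.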

How the data were processed

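Single cells were lysed and amplified on the Fluidigm C1, made into libraries with Nextera XT and sequenced on an Illumina HiSeq. The authors assigned reads to Gencode M4 genes with RSEM 1.2.19, and the deposited values used here are expected counts, which were rounded, and FPKM for each run. Members and lists were chosen with earlier results of these data known. Named genes were Lin28a, Lin28b, Dgcr8, the listed genes and the 5 genes with the highest Spearman correlation by each of 2 rules, and 1 of these genes is not reported here. Runs were summed by cell, cells with r of at least 0.9 between runs were joined, and DESeq size factors were computed from 864 genes counted in all cells. Log2 ratios are of condition means over 11227 genes with a mean of at least 5 counts, with a floor of 3 counts for a group. With 1 circuit for each condition no test was possible. Poisson and Clopper-Pearson intervals are at 95%. The code was tested on simulated data. Python 3.11.15, scipy 1.17.1 and edgeR 4.0.16 (TMM factors only) were used. A genome sequence was not used here.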

Additional observations from a re-analysis of the deposited data

How the results depend on the processing

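Each condition was 1 circuit, so no replicate could be left out, and cells cannot stand for replicates. Depth limits the low values, since at 10 counts or more Lin28b was found in 26.7% of mock, 31.6% of miR-294 and 15.6% of let-7 cells. The log2 ratios of Lin28a and Lin28b were each recomputed under 13 alternatives, some of which cannot change a given ratio. Of the 104 values, 101 moved by less than the spread between cells. That spread is wide, and the ratio of Lin28a in miR-294 over mock cells ran from 2.35 to 7.21 within it. The 3 others concerned Lin28a: without the highest cell of each condition WT over mock was 10.11 and let-7 over mock -1.85, and pooled counts gave -1.09 for the latter. Over cells with both genes, rho between the pair was 0.80 in 5 WT cells and -0.037 in miR-294 cells, and with Pearson's r on log2 values it was 0.41 in let-7 cells. When runs that differed were taken as separate cells, an alternative chosen after seeing the data, rho was 0.19 in WT cells, and the mean of Lin28a was 1.74 in mock and 1.74 in let-7 cells, which turned their order. Counting all named cells and leaving out the 2 cells whose runs differed, also chosen after seeing the data, and leaving out the 3 miR-294 cells titled in another way gave shares within the intervals above. With CPM, the median log2 ratio in miR-294 over mock cells was -0.25 for the partners of Lin28 and 0.094 for housekeeping genes. For 7 endoderm markers it was -1.05 over the 2 that passed the count filter and 0.43 without that filter. The cause of these shifts was not tested. Over fewer than 5 cells with both genes (mock, let-7) no correlation was computed, nor in let-7 cells without the highest cell, where Lin28a is 0 throughout. No paired analysis was possible because no result comes from a test and the numbers in the labels mark runs of a cell.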

Other observations

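The 3 miR-294 cells whose titles follow another pattern held 49, 0 and 0 counts of Lin28a and 0, 130 and 1 counts of Lin28b. Without them Lin28a was counted in 25 of 54 miR-294 cells (46.3%) and Lin28b in 28 (51.9%). In the let-7 cell whose runs differed, one run held 11 counts of Lin28b and the other none, and neither held Lin28a. The 3 mock cells with a Lin28a count had no count of Lin28b, and the 1 let-7 cell with Lin28a held 68 counts of Lin28b. The mean log2 level of the 169 bulk let-7 targets had a rho of 0.41 with Lin28a and of 0.37 with Lin28b over 57 miR-294 cells, and of -0.06 and 0.01 over 45 let-7 cells. The mean log2 level of 5 housekeeping genes had a rho of 0.06 with Lin28a and of 0.20 with Lin28b over the same miR-294 cells, and that of the bulk miR-294 targets a rho of 0.32 and 0.27. In these miR-294 cells the number of detected genes had a rho of 0.31 with Lin28a and of 0.26 with Lin28b. Its part in the values of these lists was not tested. Primed epiblast markers took at most 0.138% of the counts of a cell and endoderm markers at most 0.0509%, and Gata6 and Sox17 were at 0 in all cells. Of 4 primed markers that passed the count filter, 1 was at least 2-fold higher in let-7 over mock cells and 0 lower, beside 18.6% and 9.2% of all genes. That gene, Cdh2, had a log2 ratio of 3.36, with means of 63.6 in let-7 and 6.21 in mock cells. It was counted in 36 of 45 let-7 and 30 of 60 mock cells.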
